A study of Mus musculus with 18 samples.

Results

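The enzymes of glycolysis, the genes that set its rate and the genes induced by low oxygen were followed as a set of 33 mouse genes in 9 TRAMP tumours and 9 normal prostates. Members were taken by gene name, through microarray probe sets whose only annotated symbol is that of a member. Of the 33 genes, 31 had such a probe set, among 18194 genes with one on the array. Of these, 29 were bright enough to be tested, among 12794 genes tested. Gpi1 and Eno1 are not analysed here, and Eno2 and Slc16a3 fell below the filter on low signal and are given by their values alone.

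TRAMP mice carry a transgene in which a prostate promoter, that of probasin, drives the SV40 T antigens, and they develop tumours of the prostate epithelium. The labels name the 9 tumours only as TRAMP tumours. The 9 normal prostates were ventral and dorsolateral lobes. The labels used here name no strain, age, tumour stage or treatment for either group, and do not say that each array holds a separate animal, so a p-value here reflects only how far these arrays vary, which may be technical.

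Glycolysis splits glucose into pyruvate in the cytosol. Its pace is set mainly at glucose entry, at hexokinase, at phosphofructokinase and at pyruvate kinase, and lactate dehydrogenase and the lactate exporters dispose of the product when it is not burned in mitochondria. When oxygen is low, the prolyl hydroxylases encoded by the Egln genes stop marking HIF-1 alpha for destruction, and the stabilised factor raises transcription of most of these enzymes together with genes for acid balance, collagen folding, mitophagy and blood vessel tone. HIF-1 alpha is controlled mainly at the level of its protein, which arrays do not measure. Tumours often run glycolysis at a high rate even with oxygen present.

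Some arrays stood apart in marker genes that are not members. On normal prostate 9, the summed level of 4 prostate secretory genes was 9.87 on the log2 scale, against 15.77 to 17.23 on the other 8 normal arrays, and that of 6 seminal vesicle genes was 16.69, against 8.41 to 11.34. The same 6 seminal vesicle genes summed to 17.71, 18.16 and 17.70 on tumours 3, 5 and 7, to 14.91 and 14.88 on tumours 6 and 8, and to 12.06 at most on the other 4 tumours. Of the 3 luminal epithelium markers, the keratins were low on tumours 1 and 9. Krt8 read 9.36 and 7.72 there, against 13.65 to 14.04 on the other 7 tumours, and Krt18 read 9.56 and 7.05, against 13.73 to 14.65. The third, the transcription factor gene Hoxb13, went the other way, at 11.70 and 12.15 against 4.26 to 10.15. The 3 together summed to 12.19 and 12.24 on tumours 1 and 9, against 14.77 to 15.36. Neuroendocrine markers (5 genes) summed to 13.49, 12.48 and 14.27 on tumours 1, 4 and 9, against 7.33 to 8.97 on the other 6. Skeletal muscle markers (8 genes) summed to 16.66 on normal prostate 1, against 10.20 to 13.75 on the other 8. Between the groups, the 4 prostate secretory genes summed to 7.93, 9.85 and 15.49 (lowest, median, highest) in tumours, against 9.87, 16.31 and 17.23 in normal prostates, and the 3 of them that were tested fell. Of 4 macrophage markers, C1qa rose (1.88, adjusted p = 0.0188) and the other 3 gave no call. The 2 markers of dividing cells summed to 10.66 to 14.61 in tumours and 7.95 to 10.62 in normal prostates. The 4 adipocyte markers summed to 8.21, 8.90 and 12.04 (lowest, median, highest) in tumours, against 8.55, 13.84 and 15.35 in normal prostates. The 3 adipocyte markers that were tested fell. The 3′ over 5′ signal of the beta-actin control, a sign of RNA integrity, averaged 1.12 ± 0.51 in tumours and 1.71 ± 0.69 in normal prostates (log2, SD, n = 9 each). Their part in the results below was not tested, except where values without those arrays are given. In bulk tissue, fewer cells of a type and less RNA per cell cannot be told apart.

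The 250 bases before the transcription start are shown for Adm, Egln3 and Car9, which stood far above the other tumours on a single tumour (tumour 2, below), for both collagen prolyl hydroxylases that rose and for the hexokinase that fell. They are written 5′ to 3′ on the gene's strand from RefSeq, build GRCm38.p6, with every copy of ACGTG or GCGTG, the letters at the core of HIF binding elements, in capitals on either strand (read as CACGT or CACGC where it lies on the other strand).
Adm, chr7:110627407-110627656, plus strand: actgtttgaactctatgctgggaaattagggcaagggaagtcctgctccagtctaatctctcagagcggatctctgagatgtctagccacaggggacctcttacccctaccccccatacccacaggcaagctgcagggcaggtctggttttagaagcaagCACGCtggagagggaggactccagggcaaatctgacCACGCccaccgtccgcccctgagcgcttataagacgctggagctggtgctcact
Egln3, chr12:54203875-54204124, minus strand: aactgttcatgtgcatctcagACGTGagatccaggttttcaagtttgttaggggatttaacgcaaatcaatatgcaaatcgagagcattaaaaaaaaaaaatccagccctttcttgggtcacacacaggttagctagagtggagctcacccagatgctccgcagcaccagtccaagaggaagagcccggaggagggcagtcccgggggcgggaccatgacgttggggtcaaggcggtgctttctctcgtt
Car9, chr4:43506776-43507025, plus strand: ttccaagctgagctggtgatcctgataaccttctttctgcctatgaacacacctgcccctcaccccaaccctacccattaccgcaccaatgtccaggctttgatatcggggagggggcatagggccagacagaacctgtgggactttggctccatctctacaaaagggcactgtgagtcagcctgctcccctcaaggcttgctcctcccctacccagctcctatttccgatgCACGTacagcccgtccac
P4ha1, chr10:59323046-59323295, plus strand: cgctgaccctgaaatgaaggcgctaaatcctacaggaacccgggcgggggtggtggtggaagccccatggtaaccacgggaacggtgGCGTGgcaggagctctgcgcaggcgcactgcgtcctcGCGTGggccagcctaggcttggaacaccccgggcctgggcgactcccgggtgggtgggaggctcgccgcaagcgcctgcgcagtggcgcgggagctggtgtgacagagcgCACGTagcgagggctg
P4ha2, chr11:54100674-54100923, plus strand: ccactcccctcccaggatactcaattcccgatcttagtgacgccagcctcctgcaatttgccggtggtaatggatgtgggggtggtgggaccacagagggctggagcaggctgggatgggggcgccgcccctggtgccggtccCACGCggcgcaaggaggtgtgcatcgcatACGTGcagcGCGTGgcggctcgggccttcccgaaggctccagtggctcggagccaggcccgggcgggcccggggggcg
Hk2, chr6:82774455-82774704, minus strand: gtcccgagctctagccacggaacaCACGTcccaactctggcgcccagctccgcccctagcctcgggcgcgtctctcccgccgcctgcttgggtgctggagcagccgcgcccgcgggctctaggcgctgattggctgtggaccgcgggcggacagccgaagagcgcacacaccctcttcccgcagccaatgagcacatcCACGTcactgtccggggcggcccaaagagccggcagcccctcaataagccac

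The Car9 copy lies 18 bases before the start, and that of Egln3 lies 229 before. P4ha1 and P4ha2 hold 3 copies each, and Adm and Hk2 hold 2 each. Windows were found for 32 of the 33 members, 45 windows in all since some genes have several starts, and 37 of the 45 (82.2%) hold at least 1 copy on either strand, against 12679 of all 32851 windows of the same length (38.6%). A CACGTG stretch holds the letters on both strands and was marked on each. Windows of 1 gene overlap in part. The members were listed as genes of glycolysis and of the response to low oxygen, so their higher share is not a result of these arrays. The windows were not matched for base content. A match of letters is a description and not a binding site, and Hk2, which fell, holds copies as P4ha1 and P4ha2 do.

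Across the members, 5 genes rose in tumours (Pfkp, Pkm, Hif1a, P4ha1 and P4ha2) and 2 fell (Hk2 and Pfkfb4), each past an adjusted p of 0.05 in limma over all 12794 genes. That is 7 of 29 members (24.1%), against 24% of all genes tested, so the share of members that changed was near the background. Higher calls made up 17.2% of members against 11.3% of all genes, and lower calls 6.9% against 12.7%. Each of the 29 members had overlapping groups, while all 9 tumours lay above all normal prostates for 1.45% of all genes and below them for 0.93%. Counted by probe set, 11 of the 57 kept for members were called, 9 higher and 2 lower, against 19.6% of all kept probe sets. The median difference of the 29 members was 0.32 on the log2 scale, tumour minus normal, against -0.01 over all genes. Of the members, 18 lay above 0 and 11 below. The 17 glycolytic members had 2 higher and 2 lower calls with a median difference of 0.12, and the 12 hypoxia response members had 3 higher and 0 lower calls with a median of 0.51. With the beta-actin ratio as a covariate, 2 of the 7 calls were left (Pkm and Hif1a), and 12.8% of all genes were called. All values below are log2(signal + 16), a scale on which the difference of a dim gene is understated.

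**Figure D1:**
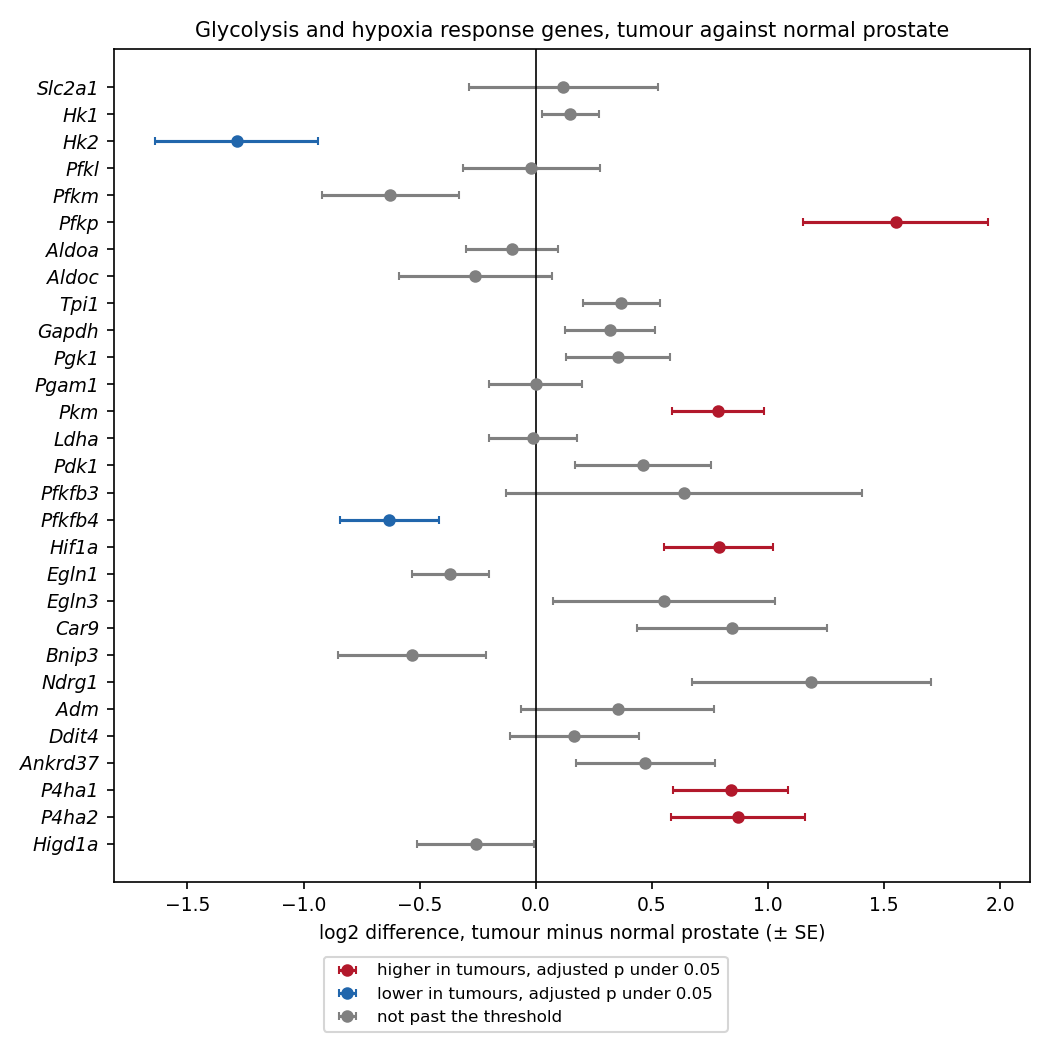
Difference between tumours and normal prostates for the 29 measured members (horizontal axis, log2, tumour minus normal, points with standard errors from limma; genes run down the page in the order of the pathway). Pfkp stands farthest to the right at 1.55 and Hk2 farthest to the left at -1.29, and most members between them lie within 0.5 of 0.

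Glucose entry and its first trapping step did not move as 1 block. Hk2, the inducible hexokinase that binds mitochondria, ranged over 8.40, 9.93 and 10.88 (lowest, median, highest) in tumours, against 10.07, 11.14 and 11.61 in normal prostates. All 9 tumours lay below the median normal prostate and 5 lay below every normal prostate. Its mean was 9.77 ± 1.01 in tumours and 11.05 ± 0.46 in normal prostates (SD, n = 9 each), a 2.44-fold lower level with a log2 difference of -1.29 (SE 0.35, adjusted p = 0.0126). The tumours fell unevenly. Tumours 1, 4, 7 and 9 read 8.93, 8.90, 8.77 and 8.40, while the other 5 read 9.93 to 10.88, and tumours 1, 4 and 9 are those with high neuroendocrine markers. Without tumours 1 and 9, the difference was -0.97 (adjusted p = 0.0455).

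Slc2a1, the basal glucose transporter, spread much more widely among tumours than among normal prostates. Its levels were 8.70, 10.31 and 12.61 in tumours, against 9.84, 10.53 and 10.81 in normal prostates, with standard deviations of 1.26 and 0.31. The tumours lay on both sides of the normal range: 4 were above every normal prostate and 2 were below every one. Those 2, tumours 1 and 9, are those low in the luminal keratins Krt8 and Krt18 and high in Hoxb13. Of the 4 high tumours, which were 2, 3, 5 and 7, the last 3 are the tumours highest in seminal vesicle genes. The log2 difference of the means was 0.12 (SE 0.41, adjusted p = 0.861), and it was -0.14 without tumour 2 and -0.36 without tumours 3, 5 and 7 and normal prostate 9. Hk1, the housekeeping hexokinase, differed by 0.15 (SE 0.12, adjusted p = 0.40).

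Among the enzymes of the upper pathway, the 3 phosphofructokinase subunits, which catalyse the committed step, went separate ways. Pfkp, the platelet-type subunit, was at 8.71, 10.33 and 11.56 in tumours, against 7.20, 8.94 and 10.14 in normal prostates. Of the 9 tumours, 8 lay above the normal median and 5 above every normal prostate, and tumour 5 was the exception at 8.71. Pfkp rose 2.93-fold, with means of 10.30 ± 0.80 in tumours and 8.75 ± 0.99 in normal prostates and a log2 difference of 1.55 (SE 0.40, adjusted p = 0.00903). A second bright probe set of the gene was also called, at 0.53 (adjusted p = 0.0305).

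Pfkl, the liver-type subunit, differed by -0.02 (SE 0.29, adjusted p = 0.972). Pfkm, the muscle-type subunit, was at 7.90, 9.64 and 9.95 in tumours, against 9.48, 9.68 and 11.30 in normal prostates, a difference of -0.63 (SE 0.29, adjusted p = 0.128). It was called lower, at -1.18 (adjusted p = 0.0261), without tumours 3, 5, 6, 7 and 8 and normal prostate 9, the arrays high in seminal vesicle genes. That left 4 tumours, among them tumours 1, 4 and 9, which have high neuroendocrine markers. Which of these traits goes with the lower level was not tested. The highest Pfkm array, at 11.30, was normal prostate 1, the one with high skeletal muscle markers. On that array Aldoa, the aldolase of muscle and most other tissues, was also at its highest, at 14.37. The aldolases Aldoa and Aldoc differed by -0.10 and -0.26 and triosephosphate isomerase, Tpi1, by 0.37 (adjusted p = 0.742, 0.595 and 0.112). Tpi1 was past the threshold in 1 of the 18 fits that each left out 1 array, without tumour 4 (0.46, adjusted p = 0.0365).

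In the lower pathway, the energy-yielding steps, Pkm was the member that rose. It encodes pyruvate kinase of muscle and growing tissues, and the array does not tell its splice forms apart. Its levels were 11.88, 12.53 and 13.36 in tumours, against 11.34, 11.71 and 12.53 in normal prostates. All 9 tumours lay above the normal median and 4 lay above every normal prostate. The means were 12.57 ± 0.45 in tumours and 11.78 ± 0.38 in normal prostates, a 1.72-fold rise with a log2 difference of 0.78 (SE 0.20, adjusted p = 0.00797).

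The neighbouring steps gave no call. Ldha, the lactate dehydrogenase subunit of glycolytic tissues, was at 11.80, 12.42 and 13.49 in tumours, against 11.87, 12.51 and 12.83 in normal prostates, and differed by -0.01 (SE 0.19, adjusted p = 0.975). The groups covered nearly the same range apart from tumour 2 at 13.49. Pgam1, phosphoglycerate mutase, differed by -0.001 and Pgk1, phosphoglycerate kinase, by 0.35 (adjusted p = 0.998 and 0.265). The 3 kept probe sets of Pgk1 had differences of both signs, 0.35, -0.44 and 0.82, none of them called.

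Gapdh, the dehydrogenase often used as a loading control, was read by 3 control probe sets along its transcript. The one at the 3′ end, used here for the gene, was at 12.44, 13.44 and 14.06 in tumours, against 12.74, 13.19 and 13.84 in normal prostates, with a difference of 0.32 (SE 0.19, adjusted p = 0.242). The middle and 5′ probe sets gave 0.50 and 0.74, the 5′ one called (adjusted p = 0.0859 and 0.0431 among probe sets). The difference grew towards the 5′ end, on arrays where the 3′ over 5′ ratio of actin was also lower in tumours. Without tumours 3, 5 and 7 and normal prostate 9, the 4 arrays highest in seminal vesicle genes, the 3′ probe set differed by 0.50 (adjusted p = 0.0416).

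The enolase Eno2, known from neurons and neuroendocrine cells, and the lactate exporter Slc16a3 were dim. Eno2 averaged 7.47 ± 1.29 in tumours and 6.53 ± 1.13 in normal prostates and was at or below the low-signal limit, the 40th percentile of each array, on 4 tumours and 7 normal prostates. Its highest tumours were 9, 1 and 4, at 9.41, 9.13 and 8.30, the same 3 that had high neuroendocrine markers. Slc16a3 averaged 7.11 ± 0.94 in tumours and 6.16 ± 0.86 in normal prostates, and was at or below that limit on 5 tumours and on all 9 normal prostates. Neither gene was tested.

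The regulators of flux did not move together either. Pfkfb4 and Pfkfb3 encode enzymes that make and remove fructose 2,6-bisphosphate, the activator of phosphofructokinase. Pfkfb4 was at 8.50, 9.46 and 10.12 in tumours, against 9.35, 10.18 and 10.70 in normal prostates. No tumour lay above the normal median and 3 lay below every normal prostate. It fell, with means of 9.43 ± 0.49 in tumours and 10.07 ± 0.42 in normal prostates and a log2 difference of -0.63 (SE 0.21, adjusted p = 0.0374). This call was close to the threshold. It was lost without any 1 of tumours 1, 2, 5 and 9 or of normal prostates 1, 2, 4, 6, 7 and 8, with an adjusted p of 0.0727 at most.

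Pfkfb3 had the widest spread of the members. It was at 7.84, 8.94 and 13.54 in tumours, against 6.29, 8.59 and 11.47 in normal prostates, and differed by 0.64 (SE 0.77, adjusted p = 0.575). The 3 highest arrays were tumour 7 at 13.54, tumour 3 at 11.53 and normal prostate 9 at 11.47, all of them among the 4 highest in seminal vesicle genes, while tumour 5, the other such array, was at 8.14. Pdk1, the kinase that shuts pyruvate dehydrogenase, differed by 0.46 (SE 0.29, adjusted p = 0.262).

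**Figure D2:**
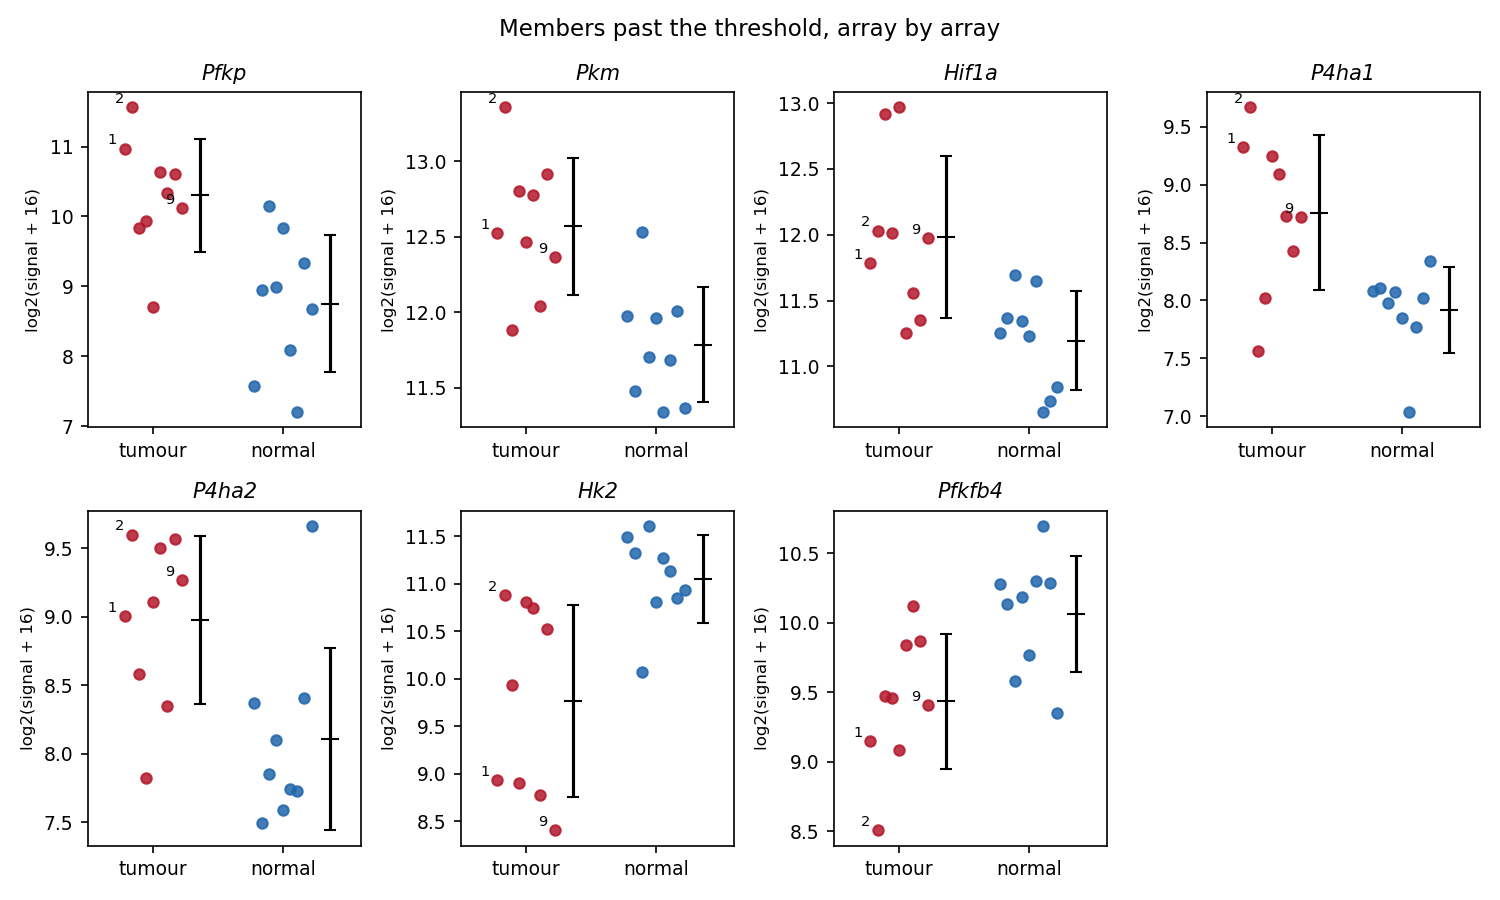
Level of the 7 members past the threshold on every array (vertical axis, log2(signal + 16); each point is 1 array, tumours left and normal prostates right, bars are mean ± SD, and tumours 1, 2 and 9 are numbered). Hk2 splits into 4 tumours between 8.40 and 8.93 and 5 between 9.93 and 10.88, and the groups overlap for every gene shown.

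Of the oxygen sensing genes, Hif1a, which encodes the regulated subunit of HIF-1, rose. It was at 11.25, 11.97 and 12.97 in tumours, against 10.65, 11.26 and 11.69 in normal prostates. Of the 9 tumours, 6 lay above every normal prostate. The means were 11.98 ± 0.61 in tumours and 11.20 ± 0.38 in normal prostates, a 1.73-fold rise with a log2 difference of 0.79 (SE 0.23, adjusted p = 0.0206), and all 3 kept probe sets were called higher. The highest tumours, 5 and 3, read 12.97 and 12.92 and are also high in seminal vesicle genes. Without tumours 3, 5 and 7 and normal prostate 9, the difference was 0.49 (adjusted p = 0.0735). Without tumours 6 and 8 as well, which left 4 tumours, it was 0.71 and called (adjusted p = 0.0153). It was 0.88 and not called (adjusted p = 0.0554) without the arrays high in skeletal muscle or urothelium genes.

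The hydroxylases that oppose it gave no call. Egln1, the main oxygen sensor, differed by -0.37 (SE 0.16, adjusted p = 0.110), with 4 tumours below every normal prostate. Egln3, itself induced by HIF, was at 7.86, 9.39 and 12.42 in tumours, against 7.71, 8.84 and 9.84 in normal prostates, a difference of 0.55 (SE 0.48, adjusted p = 0.422). Tumour 2 held the top value, and without it the difference was 0.17.

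Among the HIF targets outside glycolysis, the 2 collagen prolyl 4-hydroxylase subunits rose. These enzymes modify collagen chains in the endoplasmic reticulum. P4ha1 was at 7.56, 8.73 and 9.67 in tumours, against 7.04, 8.02 and 8.34 in normal prostates. Of the 9 tumours, 7 lay above every normal prostate, and tumours 3 and 4 did not. The means were 8.76 ± 0.67 in tumours and 7.92 ± 0.37 in normal prostates, a 1.79-fold rise with a log2 difference of 0.84 (SE 0.25, adjusted p = 0.0197). Its other kept probe set gave 0.38 and was not called. The P4ha1 call was lost without tumours 1 and 9, and with the beta-actin ratio as a covariate.

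P4ha2 was at 7.82, 9.11 and 9.60 in tumours, against 7.50, 7.86 and 9.67 in normal prostates. The top normal value was that of normal prostate 9, and the next was 8.41, below 7 of the 9 tumours. The means were 8.98 ± 0.61 in tumours and 8.11 ± 0.67 in normal prostates, a 1.83-fold rise with a log2 difference of 0.87 (SE 0.29, adjusted p = 0.0353). Without normal prostate 9 the difference was 1.06 (adjusted p = 0.00358). The call was lost without any 1 of tumours 1, 2, 6, 8 and 9 or of normal prostates 2, 3, 4, 5, 6 and 7, with an adjusted p of 0.0669 at most.

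The other targets had wide tumour ranges and gave no call. Ndrg1, a stress-responsive gene strongly induced by hypoxia, was at 9.52, 10.48 and 13.23 in tumours, against 7.05, 9.82 and 11.34 in normal prostates, with a difference of 1.19 (SE 0.51, adjusted p = 0.101). It was past the threshold in 1 of the 18 fits that each left out 1 array, without normal prostate 3 (1.41, adjusted p = 0.0462). Car9, a cell surface carbonic anhydrase that balances acid, was at 6.67, 7.70 and 10.35 in tumours, against 5.06, 7.23 and 7.66 in normal prostates, with a difference of 0.84 (SE 0.41, adjusted p = 0.141). Car9 was at or below the 40th percentile of the array on 1 tumour and 3 normal prostates. The vasodilator peptide gene Adm, the mTORC1 inhibitor Ddit4 and the ankyrin repeat gene Ankrd37 differed by 0.35, 0.17 and 0.47 (adjusted p = 0.57, 0.702 and 0.265). The probe sets used for Adm, Ndrg1 and Aldoa are among those whose names mark a match to more than 1 transcript, of the same gene or of others. Without any such probe set, 22 members were left and the same 7 were called. Of those 7, Hif1a alone was then read by another probe set. Hk2, Pfkp, Pkm, Pfkfb4, P4ha1 and P4ha2 kept theirs, so for them this was no new check. Adm then differed by 0.45 and Ndrg1 by 1.10 (adjusted p = 0.591 and 0.0639), and Hk1, Aldoa, Aldoc, Tpi1, Pgam1, Ldha and Higd1a had none left.

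Bnip3, which directs mitochondria to autophagy, ran the other way in most tumours. It was at 10.53, 11.18 and 13.41 in tumours, against 11.48, 11.88 and 12.91 in normal prostates. Of the 9 tumours, 6 lay below every normal prostate, and tumour 2 lay above all of them. The log2 difference was -0.53 (SE 0.32, adjusted p = 0.234) with tumour 2 and -0.77 (adjusted p = 0.0306) without it. Of the 18 fits that each left out 1 array, that was the only 1 to call Bnip3. Tumour 2 was singled out after its values were seen. Higd1a, a mitochondrial protein of the hypoxia response, differed by -0.26 (SE 0.25, adjusted p = 0.482). Its 3 kept probe sets had differences of both signs, -0.26, 0.34 and 0.12, none of them called.

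Tumour 2 stood out across the set. It was singled out after its values were seen, so what follows is a description without a test. It was the highest of the 18 arrays for 20 of the 29 members (69%), against 8.66% of all genes tested, and it lay above every normal prostate for 22 of the 29 (75.9%), against 23% of all genes. It was highest for 11 of the 17 glycolytic members (64.7%) and for 9 of the 12 hypoxia response members (75%). The median member lay 1.34 above the median of the other 8 tumours, against -0.04 over all genes. For glycolytic members that median was 1.08, and for hypoxia response members 1.80.

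**Figure D3:**
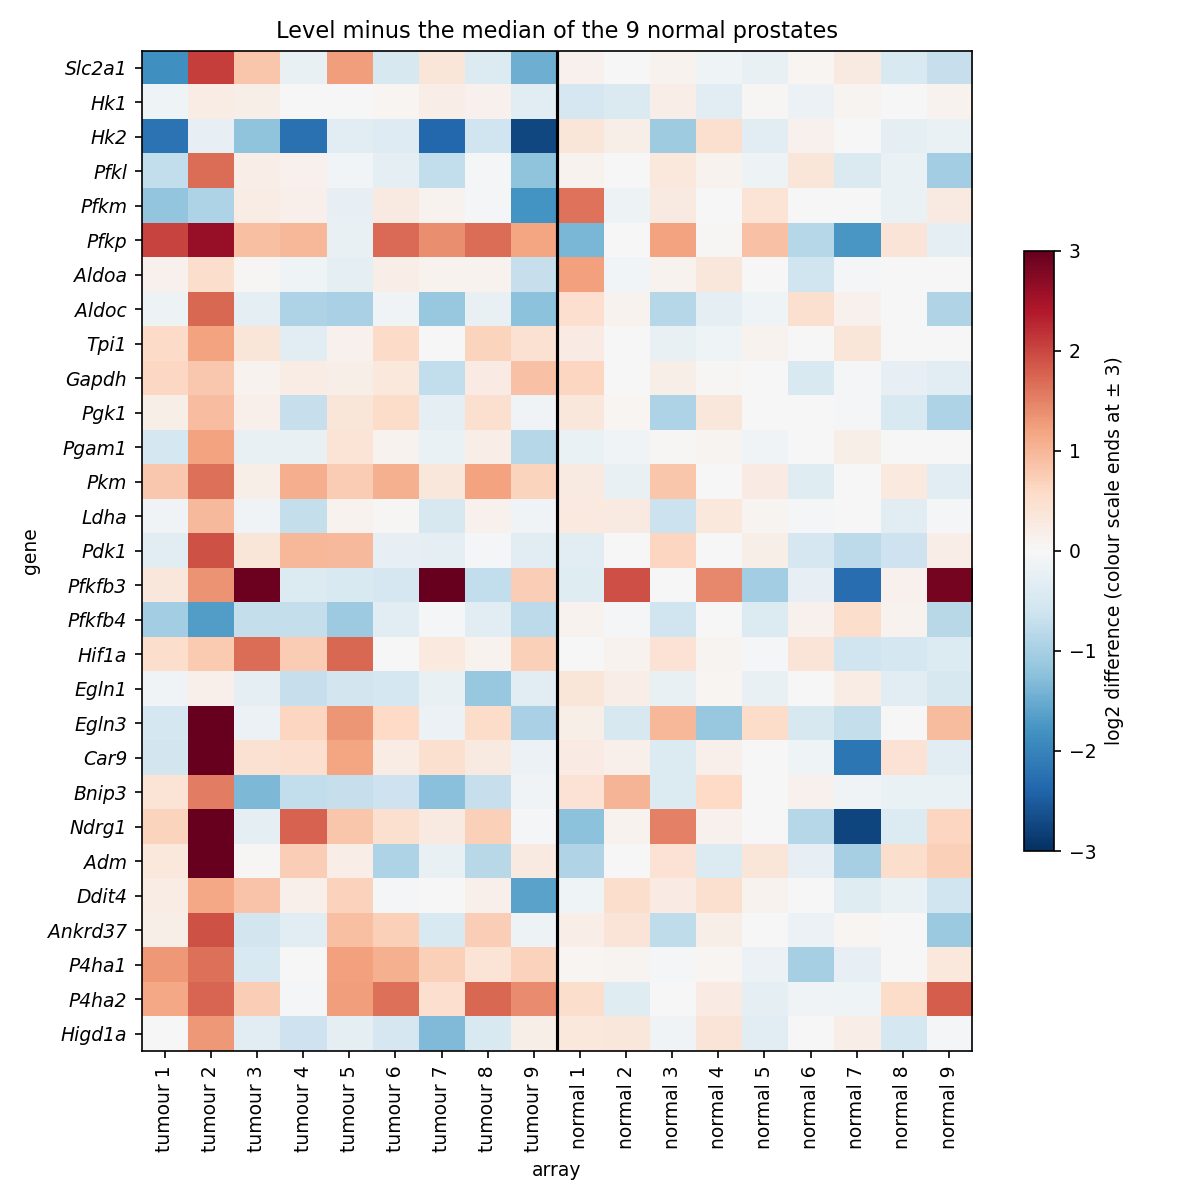
Level of each measured member on each array minus its median over the 9 normal prostates (colour, log2, red higher and blue lower; rows are genes in pathway order, columns are the 9 tumours and then the 9 normal prostates). Tumour 2 is red in most rows, with Pfkfb4 and Pfkm blue, while Pfkp and Pkm are red in most tumours and Hk2, below the normal median in all 9 tumours, is darkest in tumours 1, 4, 7 and 9.

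Among the members, the 3 with the greatest excess on tumour 2 were hypoxia response genes. Over 26 other hypoxia response genes the median excess was 0.18, below the 1.08 of the glycolytic members. Egln3 read 12.42 there, against 7.86 to 10.17 on the other 8 tumours, which is 3.39 above their median. Adm read 11.35, against 7.34 to 9.0, and lay 2.97 above their median. Ndrg1 read 13.23, against 9.52 to 11.60, and lay 2.85 above. None of these values overlapped those of the other tumours. Car9 lay 2.75, Slc2a1 2.40, Aldoc 2.34, Bnip3 2.23 and Pdk1 2.08 above the median of the other tumours.

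Abundant glycolytic enzymes also stood high on tumour 2, by less. The excess was 1.42 for Pgam1, 1.08 for Ldha, 0.86 for Pkm, 0.80 for Tpi1 and 0.74 for Pgk1. It was 0.58 for Gapdh, which read higher on tumour 9, and 0.45 for Aldoa, which read higher on normal prostate 1. The exceptions were few. Hif1a mRNA and Hk1 lay 0.15 and 0.18 above the median of the other tumours, and Pfkm and Pfkfb4 lay 0.96 below it. For Pfkfb4, tumour 2 was the lowest of all 18 arrays. On tumour 2 the 4 smooth muscle markers summed to 12.34, above the 11.31 of tumour 9 and below the other 7 tumours (14.13 to 16.57) and all 9 normal prostates (13.50 to 15.96). Tumour 2 was also the lowest of the 18 arrays in the summed prostate secretory genes, at 7.93, and in the 4 urothelium genes, at 9.49. The part of these markers in the high member values was not tested. The 5 neuroendocrine markers summed to 8.68 there. The 2 markers of dividing cells summed to 14.29 there, near the 14.61 of tumour 9. At the other end, tumour 9 and normal prostate 7 were each the lowest of the 18 arrays for 7 members (24.1%), against 19.7% and 9.29% of all genes in that order. For normal prostate 7, 4 of the 7 were hypoxia response members.

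**Figure D4:**
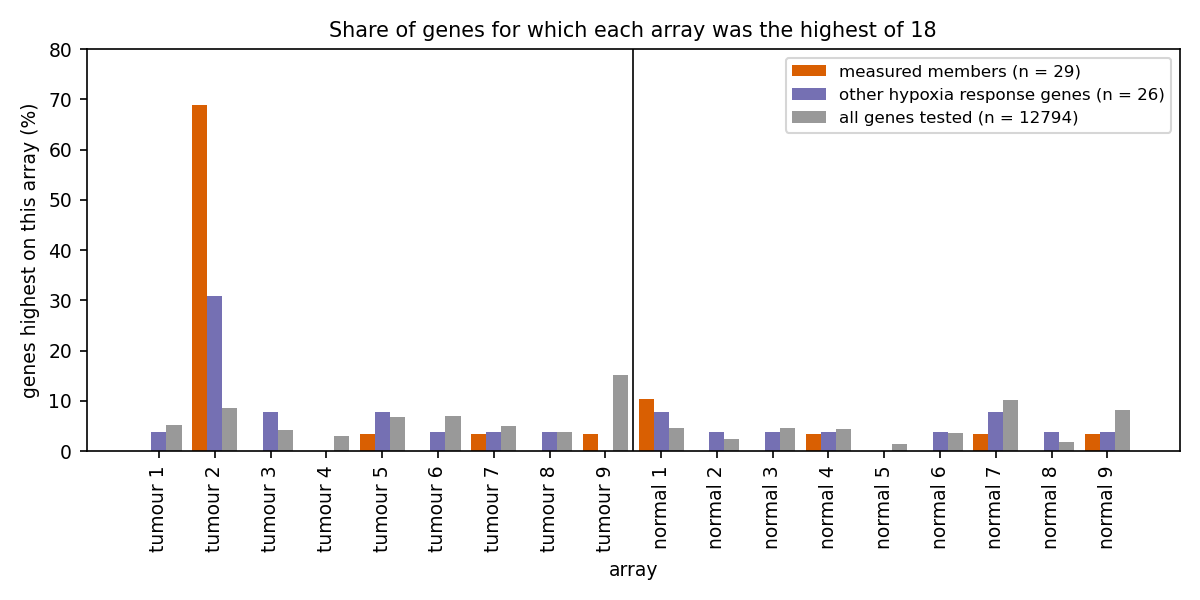
Share of genes for which each array gave the highest of the 18 values (vertical axis, percent; orange for the 29 measured members, purple for 26 other hypoxia response genes, grey for all 12794 genes). Tumour 2 holds 69% of members, 30.8% of the other hypoxia response genes and 8.66% of all genes.

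Leaving tumour 2 out changed the summary of the set. The median member difference was then 0.13, the calls higher in tumours were 4 (Pfkp, Pkm, Hif1a and P4ha1), and those lower were Hk2 and Bnip3. P4ha2 and Pfkfb4 were no longer called. The difference was 0.53 for Car9, 0.003 for Adm and 0.87 for Ndrg1, none of them called. Pfkp, Pkm, Hif1a, P4ha1 and Hk2 were called whichever single array was left out. P4ha1 was not called without tumours 1 and 9 together.

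**Figure D5:**
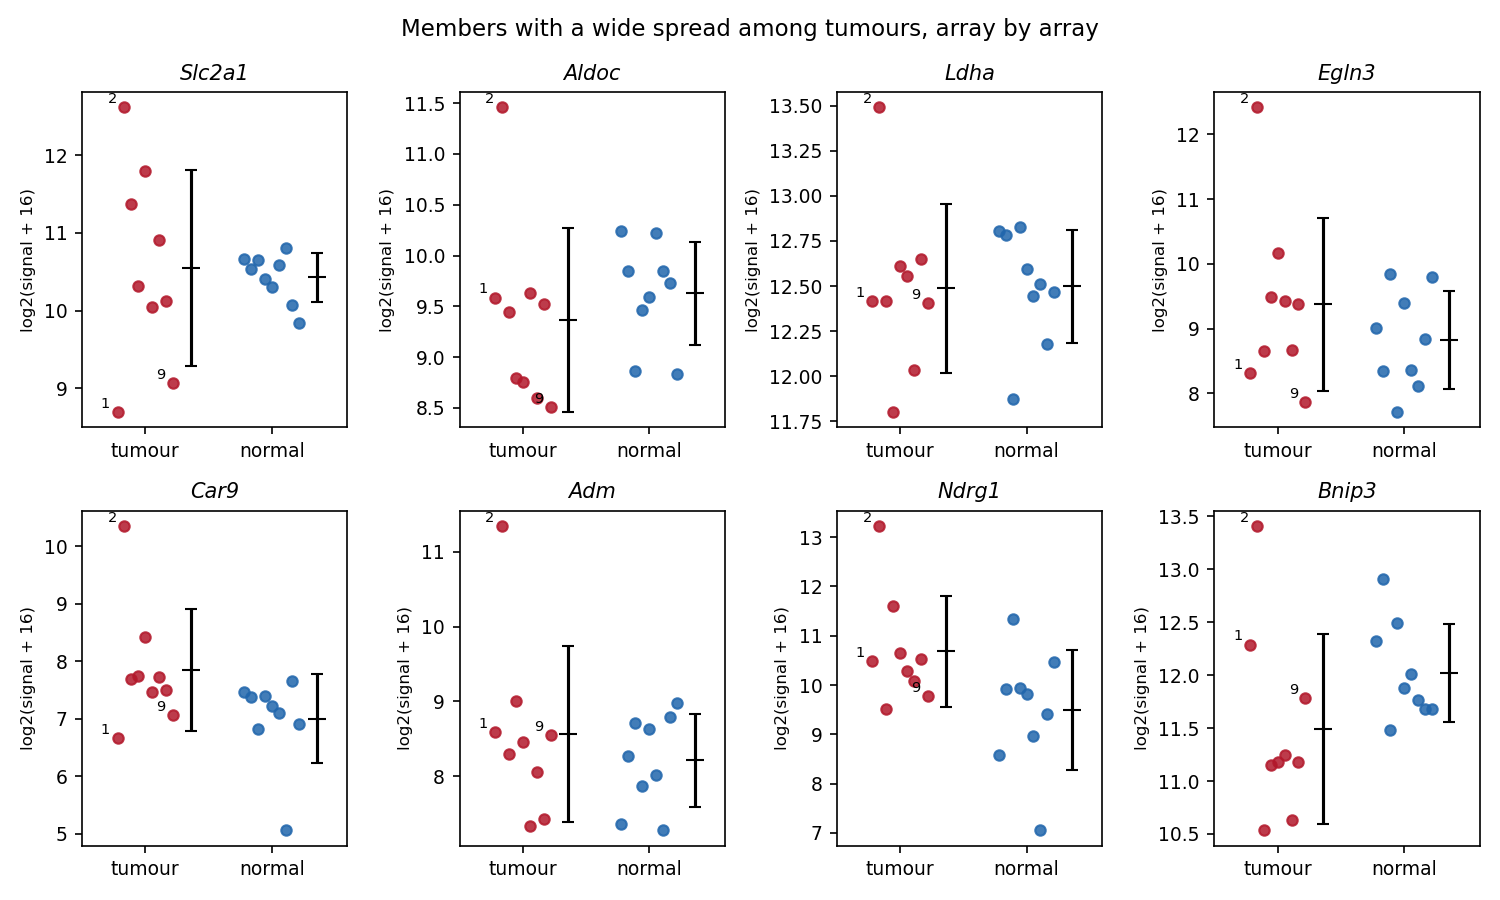
Level of 8 members picked for a high value on tumour 2 (vertical axis, log2(signal + 16), a different range in each panel; each point is 1 array, tumours left and normal prostates right, bars are mean ± SD, and tumours 1, 2 and 9 are numbered). Pfkfb3, the member with the widest spread, is not among them. Tumour 2 is the top tumour in every panel, at 12.61 for Slc2a1 and 12.42 for Egln3. The groups overlap for every gene shown, to differing degrees. For Bnip3, 6 tumours lie below every normal prostate. For Slc2a1, 4 tumours lie above every normal prostate and 2 below, and for Car9, 5 lie above, tumour 2 among them in both.

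Genes of the same pathways outside the set were looked at for comparison. Of 29 other hypoxia response genes listed, 26 were tested, of which 3 rose and 2 fell (19.2%, below the 24% of all genes called), with a median difference of -0.04. Those that rose were Bhlhe40, a transcriptional repressor induced by HIF (1.64, SE 0.53, adjusted p = 0.0315), Mif, a cytokine (0.83, SE 0.23, adjusted p = 0.0153), and Vhl, the ubiquitin ligase subunit that marks HIF for destruction (0.48, SE 0.11, adjusted p = 0.00457). Cited2, a HIF-induced protein that competes for the coactivator of HIF, fell (-2.09, SE 0.44, adjusted p = 0.00271), as did Insig2, a brake on sterol synthesis (-0.43, SE 0.15, adjusted p = 0.0476). Tumour 2 was the highest array for 8 of the 26 (30.8%), and their median lay 0.18 above that of the other tumours. Among those chosen for a high value there, Bhlhe40 read 12.30, Ero1a, an oxidase of protein folding, 12.39, and Plod2, a collagen lysyl hydroxylase, 11.85, against medians of 9.12, 9.96 and 9.43 over the other tumours. Others were no higher there than on the other tumours. Epas1, the HIF-2 alpha gene, read 10.96 against a median of 11.49, Egln2, another HIF hydroxylase, 10.44 against 10.96, and Ppp1r3c, a glycogen targeting subunit, 5.51 against 9.13.

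Of 28 other genes of glucose metabolism listed, 22 were tested, of which 1 rose and 4 fell, with a median difference of -0.29. The called share was 22.7%, near the 24% of all genes, with 18.2% lower against 12.7%. Pdk2, a second pyruvate dehydrogenase kinase, fell (-1.13, SE 0.24, adjusted p = 0.00257), with 8 tumours below every normal prostate. Mpc1, a subunit of the mitochondrial pyruvate carrier, fell (-0.77, SE 0.22, adjusted p = 0.0151). Pdha1, Pdhb and Dlat, subunits of the pyruvate dehydrogenase complex, and the kinases Pdk3 and Pdk4 gave no call. Of the phosphatases that switch pyruvate dehydrogenase on, Pdp1 rose (0.62, SE 0.17, adjusted p = 0.0138) and Pdp2 fell (-1.04, SE 0.28, adjusted p = 0.0122). Pfkfb2, another enzyme of fructose 2,6-bisphosphate, fell (-0.67, SE 0.22, adjusted p = 0.0362). Of 6 pentose phosphate genes tested, Taldo1, transaldolase, fell (-0.96, SE 0.17, adjusted p = 0.000713), and so did Pgd, 6-phosphogluconate dehydrogenase (-0.76, SE 0.22, adjusted p = 0.0183). On tumour 2, 1 of the 22 glucose metabolism genes (4.55%) and 0 of the 6 pentose phosphate genes were at their highest.

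The probe sets of control spikes averaged 9.78 to 12.43 on 5 tumours and 6 normal prostates, called bright here. They averaged 4.81 to 5.26, near the low end of the scale, on 4 tumours (6 to 9) and 3 normal prostates (7 to 9), called dim. The cause of this split by array number was not tested. The 7 called members differed in the same direction within both kinds of arrays. They had been called over these same arrays, bright and dim. The shared direction was favoured by that choice, so it was no separate check. Among arrays with bright spikes the differences were 1.28 for Pfkp, 0.77 for Pkm, 0.92 for Hif1a, 0.91 for P4ha1, 0.96 for P4ha2, -1.21 for Hk2 and -0.91 for Pfkfb4. Among those with dim spikes they were 2.02, 0.83, 0.79, 0.70, 0.57, -1.36 and -0.30 in the same order. With bright spikes alone, Hif1a, P4ha2 and Pfkfb4 were called, and with dim spikes alone limma called 0 genes of all 12794 and 0 members, with 1639 genes and 4 members at an unadjusted p under 0.05.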

How the data were processed

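Total RNA from 9 TRAMP tumours and 9 normal prostates was labelled and hybridised to Affymetrix mouse arrays, 1 colour per array. The deposited values are signal intensity per probe set, made by the authors with MAS5 per the submitters' processing notes. Each array's 2% trimmed mean is 500 in the values. Arrays have no read depth, and precision is limited by there being 9 arrays a group. Values were taken as log2(signal + 16). Of 45101 probe sets, 61 control sets were left out, 3 Gapdh control sets were kept, and 27295 above the 40th percentile on at least 9 arrays were kept. Probe sets naming several genes or none were not used for genes, and a gene took its probe set with the highest mean. Groups were taken from the labels and compared with limma 3.58.1 (R 4.3.3), no covariate, with Benjamini-Hochberg adjustment over 12794 genes and a threshold of 0.05. On simulated data the fit recovered 57% of 100 genes changed by 1 and 87% of 100 changed by 2 (log2), with 9 false calls among 153. The simulated noise was normal and independent, with the same SD in both groups, and no other genes were changed. In the real data 24% of genes were called and the SD of a gene could differ between groups, so the real rates may differ.

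Full values are given for members past the threshold, for members with a difference of at least 1, and for Slc2a1, Hk2, Pfkfb3, Pkm, Ldha, Gapdh and Hif1a. Other genes of the pathways are named where called, up to 6 a list. Values of other members were added after they were seen. The members, lists and tests were chosen with earlier results of these data known. The alternatives are in the closing section. The sequences come from RefSeq promoter windows.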

Additional observations from a re-analysis of the deposited data

Results flagged for a closer look

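In 12 of 62 groups of 9 arrays examined, the highest or lowest array lay apart from the rest of its group by Dixon's test for a single outlier, where chance alone gives about 3.1. In 6 of the 12 the array was tumour 2, the highest of the tumours: Pfkl at 11.66 (next 10.20), Aldoc at 11.46 (next 9.63), Ldha at 13.49 (next 12.65), Egln3 at 12.42 (next 10.17), Car9 at 10.35 (next 8.41) and Adm at 11.35 (next 9.0). The members share their arrays, so these 6 are not independent.

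Among the other tumours, Gapdh was lowest on tumour 7 at 12.44 (next 13.30) and Ddit4 was lowest on tumour 9 at 8.99 (next 10.57). Among normal prostates, Pfkm was highest on normal prostate 1 at 11.30 (next 10.08), where skeletal muscle markers summed to 16.66. P4ha2 was highest on normal prostate 9 at 9.67 (next 8.41), the array with high seminal vesicle genes. Car9 was lowest on normal prostate 7 at 5.06 (next 6.82), and P4ha1 was lowest on normal prostate 6 at 7.04 (next 7.77).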

How the results depend on the processing

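Of the 36 alternatives, most kept the member count near its main value of 7 called, 5 higher and 2 lower, with 11 of 57 probe sets called. With no filter on low signal, 1 member was lower. With each array centred on its 75th percentile, 7 probe sets were called, and 35.3% of all calls were higher, against 47.1% without it. Arrays with bright spikes alone gave 3 members (2 higher, 1 lower) and 5 probe sets, and arrays with dim spikes alone gave 0 of each and 0 genes. The actin ratio as a covariate gave 2 members (2 higher, 0 lower), 1633 genes and 3 probe sets, against 3066 genes. Without all arrays high in seminal vesicle genes, 4861 genes were called, 9 members among them (6 higher, 3 lower). That setting left 4 tumours, among them tumours 1, 4 and 9, which have high neuroendocrine markers. Without arrays high in skeletal muscle or urothelium genes, 4 members (3 higher, 1 lower), 1923 genes and 4 probe sets were called. The member calls lost there were Pfkfb4, Hif1a and P4ha2. Without tumours 1 and 9, chosen after seeing the data for their low Krt8 and Krt18, 4 members (3 higher, 1 lower) and 7 probe sets were called. Pfkfb4, P4ha1 and P4ha2 were then lost. Leaving out 1 array at a time gave 5 to 8 members (4 to 6 higher, 1 to 2 lower), 7 to 14 probe sets and 2455 to 3411 genes. The cause of these changes was not tested. Settings that leave arrays out also have fewer arrays, and the part of that was not tested either.

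The differences near 0 changed sign. Ldha, at -0.01, was 0.14 with quantile normalization, 0.0057 with the spike-in class as a block, 0.025 on arrays with dim spikes, 0.032 with the actin ratio, 0.052 without the arrays highest in seminal vesicle genes, 0.027 without all arrays high in them, 0.037 without the skeletal muscle and urothelium arrays and 0.011 without tumours 1 and 9. Slc2a1, at 0.12, was -0.20 on arrays with dim spikes, -0.36 without the arrays highest in seminal vesicle genes and -0.33 without all arrays high in them. Pfkfb3, at 0.64, was -0.063 with the actin ratio. Leaving out 1 array gave -0.14 to 0.074 for Ldha and -0.14 to 0.35 for Slc2a1.

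Tumour and normal arrays share numbers in the labels. With the number as a replicate block, 7 members (5 higher, 2 lower) and 2645 genes were called. The numbers were not taken as pairs, since 1 of 9 same-numbered pairs had deviations correlating above 0.1 (range -0.11 to 0.31), and 1 tumour and 0 normal prostates correlated best with their own number.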
